A study of Mus musculus with 14 samples.

Results

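The Cyp3a cytochromes are the mouse counterparts of the CYP3A drug-metabolizing enzymes of human liver. They were followed here as 8 rows of a table of 55427 genes, in 14 libraries of bulk liver RNA. The members were Cyp3a11, Cyp3a13, Cyp3a16, Cyp3a25, Cyp3a41a, Cyp3a41b, Cyp3a44 and Cyp3a59. They were chosen by gene name from this family, which was selected on the levels and fold changes of these same libraries, seen in earlier results. Their levels, fold changes and overlaps between groups are therefore a description, with no test behind them.

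The livers came from male mice on a C57B6 background, 8 to 10 weeks old at the start and fed for 14 weeks. Groups were chow (3 libraries), a fast-food diet (FFD, 3 libraries), the same diet prepared to be high in advanced glycation end-products (AGEs) and called the high-AGE diet (HiAD, 3 libraries), HiAD with daily injections of the AGE inhibitor pyridoxamine (HiAD + PM, 60 mg per kg from week 5, 2 libraries), and HiAD in mice labelled RageHepKO (3 libraries). By the labels, the first 4 groups carried a floxed allele of RAGE, the receptor for AGEs. The mice labelled RageHepKO carried the floxed allele with an albumin-driven Cre, which acts in hepatocytes and leaves the receptor in other liver cells. The design asks how each diet, the inhibitor and the loss of the receptor in hepatocytes changed the liver transcriptome.

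Enzymes of the Cyp3a family sit in the endoplasmic reticulum of hepatocytes, hold a haem group and oxidize drugs, steroids and bile acids with electrons passed on by cytochrome P450 reductase and cytochrome b5. Their genes are classical targets of the nuclear receptors PXR (Nr1i2) and CAR (Nr1i3), which bind DNA together with RXR and are switched on by foreign compounds and bile acids. In mouse liver, members also differ by sex and age. Cyp3a11 is the main adult form, Cyp3a25 is expressed in both sexes, Cyp3a13 is also found outside the liver, Cyp3a41a, Cyp3a41b and Cyp3a44 are known as female-predominant, and Cyp3a16 is known from fetal and newborn liver.

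All members lie on chromosome 5 (GRCm38, GENCODE M21 annotation). Besides the 8 members, the coding gene Cyp3a57 belongs to the same cluster and is given for context. Cyp3a57 and 7 members form a cluster of 768 kb at chr5:145345279-146113287, and Cyp3a13 stands alone at chr5:137892932-137921619, 7.42 Mb away. Cyp3a11 lies at chr5:145854426-145879964 on the minus strand, Cyp3a25 at chr5:145977194-146009618 on the minus strand and Cyp3a59 at chr5:146079257-146113287 on the plus strand. Each member has 13 exons and encodes 503 or 504 residues. The coding sequences of Cyp3a41a and Cyp3a41b were 99.9% identical and those of Cyp3a25 and Cyp3a59 97.5% identical. Cyp3a11 was 95.2% identical to Cyp3a41a, 94.9% to Cyp3a44, 76.1% to Cyp3a25 and 76.7% to Cyp3a13. Of all stretches of 150 bases in the Cyp3a41a transcript, 82.9% occurred unchanged in Cyp3a41b, so that reads cannot be assigned to 1 of these copies with certainty. For Cyp3a25 the share that occurred unchanged in Cyp3a59 was 0.702%.

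The upstream sequences below show how near these genes are to each other outside the coding part. They run from base -250 to base -111 before the RefSeq start (GRCm38.p6), 5′ to 3′ on the strand of the gene, and the capitals mark nuclear receptor half-sites on either strand, AGGTCA or AGTTCA. Cyp3a11 was chosen as the member with the highest mean level, Cyp3a44 as a close relative that was nearly silent, and Cyp3a25 and Cyp3a59 as near copies whose levels differed.
Cyp3a11 (chr5:145879965-145880104, minus strand): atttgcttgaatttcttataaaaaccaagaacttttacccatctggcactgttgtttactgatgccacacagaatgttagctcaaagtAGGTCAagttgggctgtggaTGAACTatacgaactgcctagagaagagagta
Cyp3a44 (chr5:145805985-145806124, minus strand): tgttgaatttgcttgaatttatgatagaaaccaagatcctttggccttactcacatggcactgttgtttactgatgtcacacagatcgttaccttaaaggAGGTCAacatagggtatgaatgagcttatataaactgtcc
Cyp3a25 (chr5:146009729-146009868, minus strand): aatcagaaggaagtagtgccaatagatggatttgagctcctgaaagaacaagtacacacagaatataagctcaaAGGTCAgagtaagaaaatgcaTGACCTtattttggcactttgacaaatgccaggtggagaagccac
Cyp3a59 (chr5:146079008-146079147, plus strand): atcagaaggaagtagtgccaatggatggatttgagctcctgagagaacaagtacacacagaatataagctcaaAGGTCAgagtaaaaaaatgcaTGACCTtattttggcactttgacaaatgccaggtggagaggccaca

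Over the full 250 bases before the start, Cyp3a25 and Cyp3a59 were 94.8% identical, and both held AGGTCA once on each strand with 15 bases between the copies. Cyp3a11 held AGGTCA and, 14 bases further, AGTTCA on the opposite strand. Cyp3a44 held 1 copy of AGGTCA, and its upstream bases were 71.7% identical to those of Cyp3a11. Cyp3a41a and Cyp3a41b held AGTTCA alone, and Cyp3a13 and Cyp3a16 held neither. Among 27025 mouse promoters searched over the same length on both strands, 13.8% held AGGTCA and 11.9% held AGTTCA. The letters TTCNNNGAA, the core of a STAT5 site, occurred in 7.18% of all promoters and in no promoter of the family. The TATA letters TATAAA were found in 13.0% of all promoters and in those of Cyp3a11, Cyp3a16, Cyp3a41a, Cyp3a41b and Cyp3a44. These matches are a description of the letters and say nothing of binding.

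The level of each gene was given in scaled FPKM, which is fragments per unit of exon length and of library size (FPKM) after the libraries were brought to a common scale. The read depth behind the values is unknown, so that their precision rests on the spread between libraries. In whole liver, fewer cells of a type and less RNA per cell cannot be told apart. Hepatocyte markers (6 of 6 above 0 in every group) summed to 16051 to 38196 over all libraries. Mitochondrial genes made up 24.3% to 53.1% of all FPKM where the label was RageHepKO and 6.06% to 24.1% elsewhere. Ager, which encodes RAGE, ranged from 0.198 to 1.90 under the RageHepKO label and from 0.0811 to 0.184 on the HiAD in floxed mice, the group it is compared with, so that between these groups its level went against the label. It was higher in the other floxed groups, at 0.801 to 2.15 on chow, 2.47 to 2.78 on the FFD and 2.49 to 2.75 with PM. The level of H2-Bl, a histocompatibility gene, reached no more than 0.0771 on the HiAD and stood at 2.59 or more in every other library. The mitochondrial transfer RNA gene mt-Tg was at 69.01 to 134 on the HiAD, at 431 to 1373 under the RageHepKO label and at most 0.837 in all chow, FFD and PM libraries. Ager and H2-Bl were lower in each HiAD library than in all others, so that they separate the groups compared with the HiAD below. The mitochondrial share was highest under the RageHepKO label, and mt-Tg set the HiAD and RageHepKO libraries apart from the rest. The part of these values in the results was not tested. Libraries were not said to share litters or days. The p-values set each difference between group means against the spread between these libraries within their groups.

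Of the 8 members, 4 were expressed at a level that could be compared, and 4 were close to 0 in these male livers. Genes that reached 1 scaled FPKM in 2 or more libraries entered the comparisons, and Cyp3a11, Cyp3a13, Cyp3a25 and Cyp3a59 did so. Over the 14 libraries their mean levels were 267, 54.7, 170 and 7.69 scaled FPKM. The lowest of these, Cyp3a59, was above 1 scaled FPKM in all 14 libraries, with 1.09 in its lowest. Of the members outside the limit, Cyp3a44 came nearest to it, with 0.444 in its highest library.

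Cyp3a11, the main adult enzyme of the family, was far higher on the HiAD than in every other group. Its level was 858, 766 and 729 scaled FPKM in the HiAD libraries. On chow it was 179, 255 and 189, and on the FFD 89.5, 13.4 and 111. With PM it was 59.7 and 63.5, and in the libraries labelled RageHepKO 217, 121 and 88.7. Each HiAD library lay above all 11 other libraries, and the group means fell in the order HiAD (784 ± 66.5, SD, n = 3), chow (208 ± 41.2, SD, n = 3), RageHepKO (142 ± 67.0, SD, n = 3), FFD (71.4 ± 51.3, SD, n = 3) and PM (61.6 ± 2.74, SD, n = 2). Chow and RageHepKO overlapped, as did RageHepKO and FFD, and FFD and PM. In rank among all 55427 genes of a library, Cyp3a11 stood between 57 and 65 on the HiAD, between 170 and 218 on chow, between 546 and 562 with PM, between 192 and 458 in the libraries labelled RageHepKO, and between 347 and 2221 on the FFD. FFD replicate R31 was the lowest library of all.

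**Figure D1:**
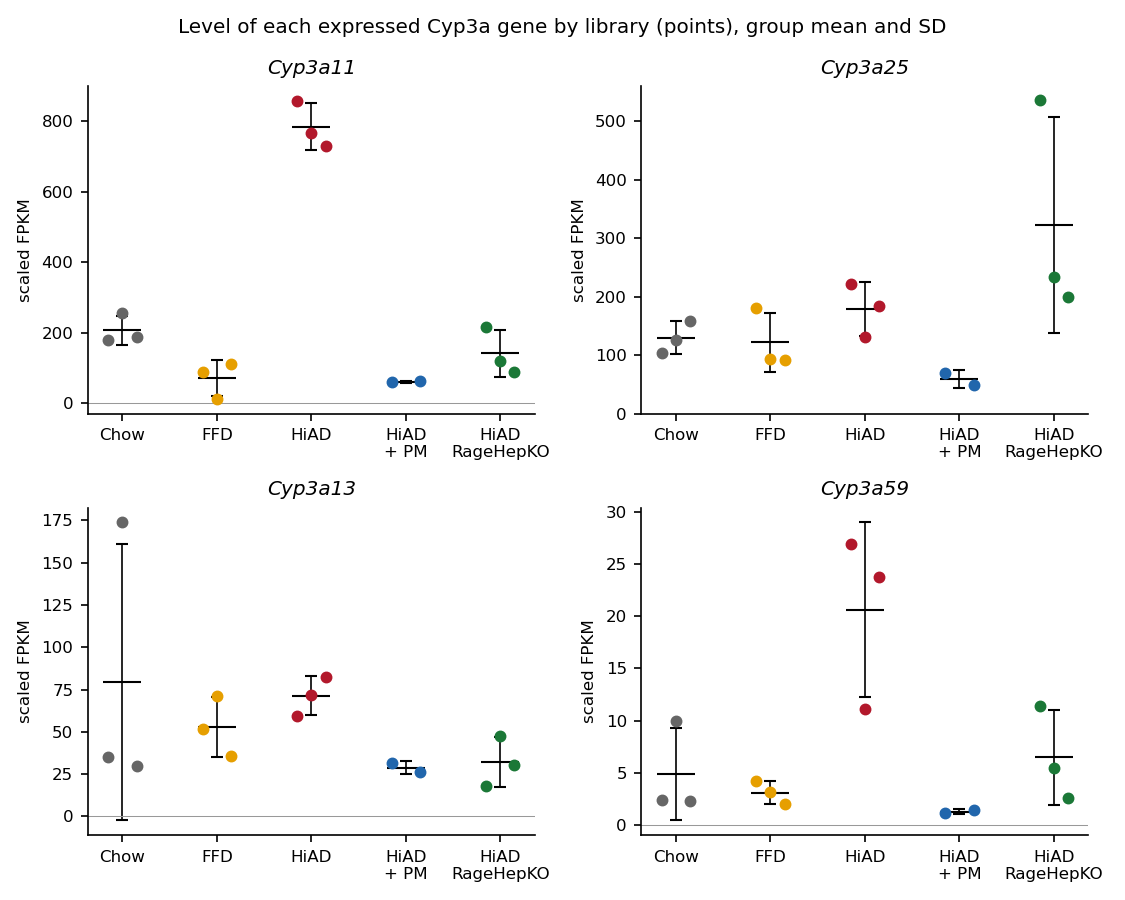
Scaled FPKM of Cyp3a11, Cyp3a25, Cyp3a13 and Cyp3a59 (vertical axes) in each of 14 liver libraries (points) by group, with the group mean and SD as bars. The HiAD libraries of Cyp3a11 sit between 729 and 858, above all others, whereas Cyp3a25 was highest in the libraries labelled RageHepKO.

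Cyp3a59 followed with a much lower level and a similar order. It stood at 26.9, 11.1 and 23.8 scaled FPKM on the HiAD and at 4.18, 3.11 and 1.98 on the FFD. On chow it was 2.34, 9.99 and 2.30, with PM 1.09 and 1.44, and in the libraries labelled RageHepKO 11.4, 5.42 and 2.55. The HiAD libraries were above those of chow, FFD and PM, while the lowest of them (11.1) was just under the highest labelled RageHepKO (11.4). Chow replicate R2 stood well above the other chow libraries. Chow, RageHepKO and FFD overlapped among themselves, and PM lay below all 12 other libraries.

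Cyp3a25, a near copy of Cyp3a59 in sequence, had a different pattern. Its level was 222, 131 and 183 scaled FPKM on the HiAD and 103, 127 and 159 on chow. On the FFD it was 181, 93.2 and 91.1, with PM 69.8 and 48.2, and in the libraries labelled RageHepKO 536, 233 and 200. The libraries labelled RageHepKO had the highest mean (323 ± 185, SD, n = 3) but overlapped the HiAD (179 ± 45.4, SD, n = 3), which overlapped chow (129 ± 28.1, SD, n = 3) and FFD (122 ± 51.1, SD, n = 3). With PM (59.0 ± 15.3, SD, n = 2) both libraries were below all others. Replicate RA19, the highest of all for Cyp3a25, was also the library with 53.1% mitochondrial FPKM. The part of the mitochondrial share in this level was not tested.

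Cyp3a13, the member outside the cluster, had the smallest span of group means among the expressed members, 1.27 on the log2 scale against 3.89 for Cyp3a11. It stood at 59.6, 72.0 and 82.5 scaled FPKM on the HiAD, at 34.9, 174 and 29.9 on chow and at 51.7, 71.5 and 35.9 on the FFD. With PM it was 31.7 and 26.2, and in the libraries labelled RageHepKO 17.8, 47.4 and 30.7. The HiAD libraries were above those with PM and those labelled RageHepKO, and chow overlapped every group, since chow replicate R2 was the highest of the 14 libraries and chow replicate R3 among the lower ones. The group means ran from 79.5 ± 81.7 (SD, n = 3) on chow through 71.3 ± 11.5 (SD, n = 3) on the HiAD and 53.0 ± 17.8 (SD, n = 3) on the FFD to 28.9 ± 3.86 (SD, n = 2) with PM.

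The members known as female-predominant or fetal stayed near the bottom of the scale. Cyp3a44 had its 3 highest values among the HiAD and chow libraries, with 0.309, 0.0751 and 0.444 scaled FPKM on the HiAD and 0.0560, 0.135 and 0 on chow. It was at 0.112 in FFD replicate R31 and listed at 0 in the other FFD libraries, with PM and in all libraries labelled RageHepKO. Cyp3a16 was at most 0.0485 in any library. Cyp3a41a was listed at 0 except in the HiAD replicates B1 (0.0339) and B3 (0.0357), and Cyp3a41b was listed at 0 in all 14 libraries. The neighbour Cyp3a57 did not exceed 0.0748, and the pseudogenes Cyp3a61-ps1 and Cyp3a63-ps were at 0 and at most 0.0858. At an unknown depth, such values cannot be set apart from a few stray reads.

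In HiAD against FFD livers, the changes of the family were led by Cyp3a11. Its log2 fold change, on the scale of log2 of scaled FPKM plus 1, was 3.89 (standard error 0.60), a ratio of 14.9, followed by 2.35 (standard error 0.52) for Cyp3a59. Without FFD replicate R31 the value of Cyp3a11 was 2.96. Cyp3a25 was at 0.60 (standard error 0.39) and Cyp3a13 at 0.46 (standard error 0.55), both with overlapping libraries. Of the 4 members tested, 2 were called higher (limma, adjusted p below 0.05) and 0 lower, beside 1.66% of all 12110 tested genes called higher and 1.45% called lower. The groups did not overlap for 2 members and for 30.6% of all tested genes. Since the members were chosen with these results known, nothing is read from the comparison of these shares, here or below. The call of Cyp3a59 was lost without HiAD replicate B1 or B3 or any FFD library.

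**Figure D2:**
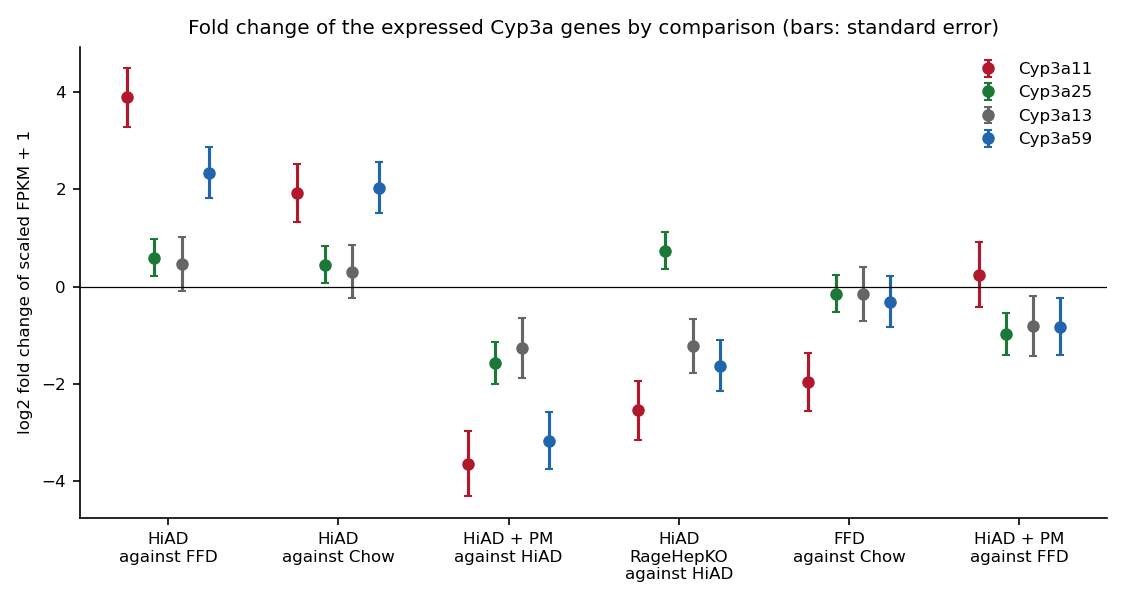
Log2 fold change (vertical axis, of scaled FPKM plus 1) of the 4 expressed members in 6 comparisons (horizontal axis), with the standard error from limma as bars. Cyp3a11 and Cyp3a59 lie above 0 in both comparisons of HiAD with another diet and below 0 with PM and RageHepKO, whereas Cyp3a25 is at 0.74 in RageHepKO against HiAD.

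Against chow, Cyp3a11 and Cyp3a59 were again the members with the largest differences. On the log2 scale Cyp3a59 differed by 2.04 (standard error 0.52) and Cyp3a11 by 1.92 (standard error 0.60), and the libraries of both did not overlap. Cyp3a25 (0.45, standard error 0.39) and Cyp3a13 (0.31, standard error 0.55) overlapped. The direction of Cyp3a13 rested on single chow libraries, with -0.14 without chow replicate R3 and 1.11 without chow replicate R2. The count called was 1 higher, Cyp3a59, and 0 lower, beside 2.81% and 1.82% of all tested genes, and 25.6% of all genes did not overlap. This count is fragile. It fell to 0 without chow replicate R1 or R3, HiAD B1 or B3, either PM library, RageHepKO replicate RA20, or FFD R28 or R32.

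With PM, the expressed members lay lower than on the HiAD alone. Log2 fold changes were -3.65 (standard error 0.67) for Cyp3a11, -3.17 (standard error 0.58) for Cyp3a59, -1.57 (standard error 0.43) for Cyp3a25 and -1.27 (standard error 0.62) for Cyp3a13. The libraries overlapped for none of the 4 tested members, and 50.0% of all tested genes did not overlap either, in a comparison of 2 with 3 libraries. Called lower were 3 members and called higher 0, beside 3.14% and 3.31% of all tested genes. Without PM replicate R18 or R19 the count was 0, with the remaining library assumed to vary like the other groups. The HiAD libraries are shared between this comparison, those with chow and FFD and the one that follows, so that a high value there moves all of them.

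In the libraries labelled RageHepKO, the family split. On the log2 scale Cyp3a11 differed from the HiAD by -2.55 (standard error 0.60), Cyp3a59 by -1.63 (standard error 0.52) and Cyp3a13 by -1.22 (standard error 0.55), while Cyp3a25 stood at 0.74 (standard error 0.39). Called were 2 lower (Cyp3a11 and Cyp3a59) and 0 higher, beside 17.7% and 15.7% of all tested genes, and groups did not overlap for 2 members (Cyp3a11 and Cyp3a13) and for 44.0% of all genes. The count was 1 without HiAD replicate B1 or B3 or without RA20 or RA21. On the values as deposited, without a common scale, the median of all tested genes moved to -0.26 in this comparison, Cyp3a25 stood at 0.33 and Cyp3a13 was called as well, as it was without chow replicate R2. Ager was not lower than on the HiAD, but its low level in whole liver cannot show whether it was lost in hepatocytes. The genotype in this contrast is taken from the label.

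Neither FFD against chow nor PM against FFD gave a called member. In FFD against chow, Cyp3a11 was at -1.97 (standard error 0.60) with no overlap between the libraries, and at -1.03 without FFD replicate R31. The others were between -0.31 and -0.14, and each of them changed sign under some alternative, Cyp3a13 and Cyp3a59 without chow replicate R2. Of all tested genes, 0.0661% were called and 17.9% did not overlap. In PM against FFD the log2 fold change of Cyp3a11 was 0.25 (standard error 0.67), with overlapping libraries, and turned to -0.69 without FFD replicate R31. Those of Cyp3a25, Cyp3a59 and Cyp3a13 were -0.98, -0.82 and -0.80, each without overlap, beside 41.8% of all tested genes without overlap and 0.132% called.

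The makeup of the Cyp3a transcript pool differed between groups. The shares of members within a library are independent of the scaling of the libraries, whereas the sums are not. Summed over the family, scaled FPKM was 981 to 1166 on the HiAD, 319 to 566 on chow, 181 to 326 on the FFD, 139 to 162 with PM and 322 to 783 in the libraries labelled RageHepKO. Cyp3a11 took 71.5% to 78.1% of this sum on the HiAD, 45.1% to 56.1% on chow, 36.8% to 45.6% with PM, 7.41% to 46.3% on the FFD and 27.5% to 29.7% in the libraries labelled RageHepKO. Cyp3a25 took 37.9% to 55.4% on the FFD and 57.3% to 68.5% in the libraries labelled RageHepKO. Thus Cyp3a11 was the leading transcript in each HiAD and chow library, and Cyp3a25 in each library labelled RageHepKO.

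**Figure D3:**
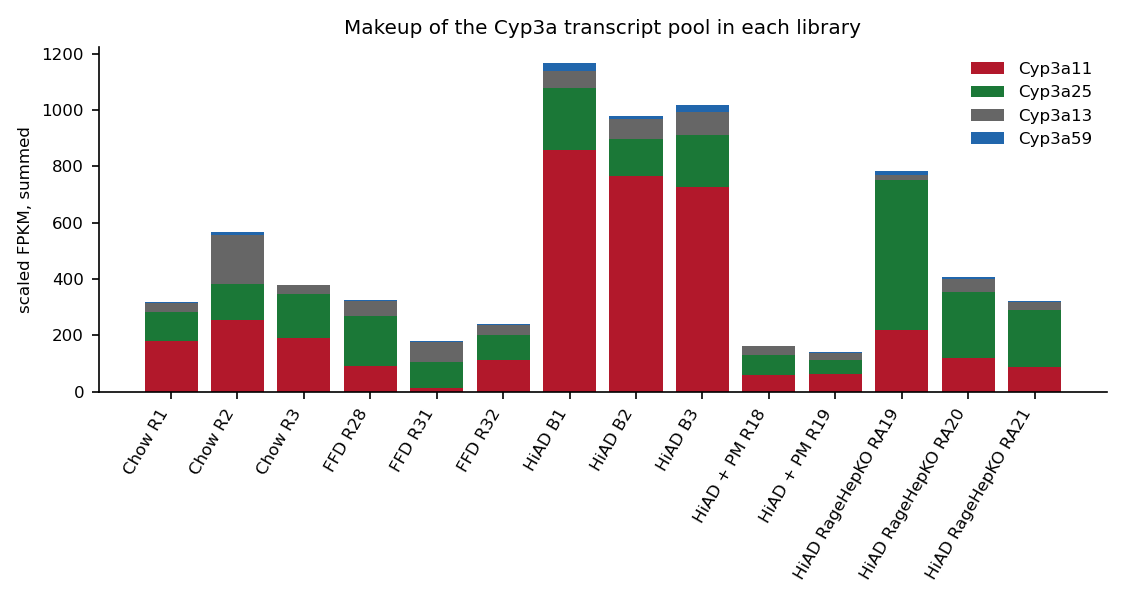
Scaled FPKM of the 4 expressed members stacked for each of 14 libraries (horizontal axis). The HiAD bars reach 981 to 1166 and are mostly Cyp3a11, and those labelled RageHepKO reach 322 to 783 and are mostly Cyp3a25.

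Ratios within a library set the members against each other without any common scale. Cyp3a11 was 3.87 to 5.83 times as high as Cyp3a25 on the HiAD, 1.19 to 2.01 times on chow, 0.855 to 1.32 times with PM, 0.144 to 1.22 times on the FFD and 0.406 to 0.519 times in the libraries labelled RageHepKO. Cyp3a59, which shares its upstream half-sites and 97.5% of its coding sequence with Cyp3a25, reached 8.45% to 13.0% of the level of Cyp3a25 on the HiAD. In the other libraries it was 1.27% to 3.34%, with the exception of chow replicate R2 at 7.89%. All HiAD libraries were therefore above the rest in both ratios. The sources used here do not say how reads of such near copies were assigned, and the part of Cyp3a25 reads in the Cyp3a59 level was not tested.

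**Figure D4:**
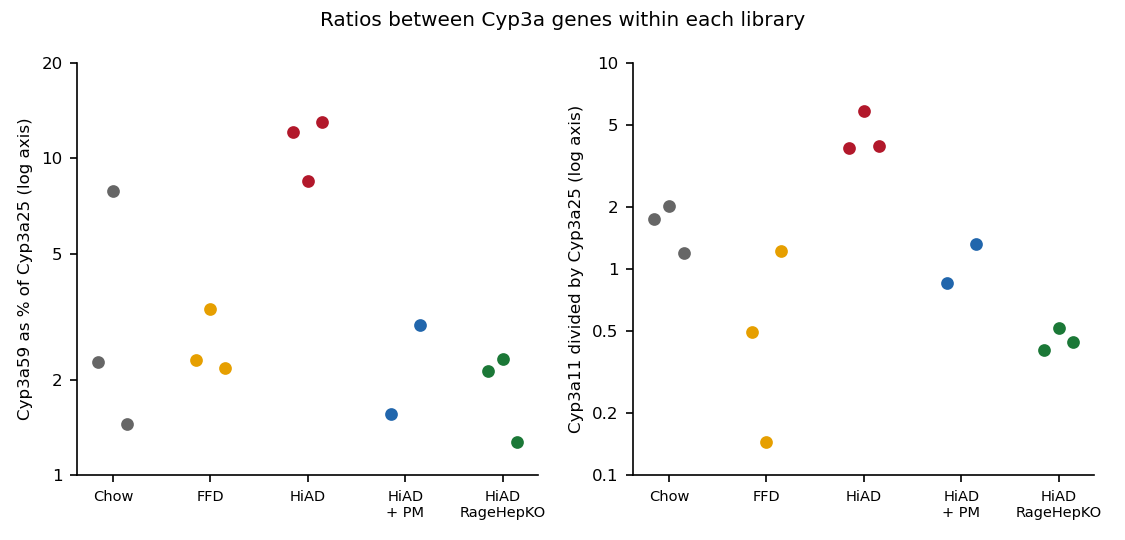
Cyp3a59 as a percentage of Cyp3a25 (left, log axis) and the ratio of Cyp3a11 to Cyp3a25 (right, log axis) in each library by group. The HiAD libraries lie at 8.45% to 13.0% and at 3.87 to 5.83, above all others.

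Across the 14 libraries, Pearson's r of the log2 levels was 0.77 between Cyp3a11 and Cyp3a59, 0.61 between Cyp3a25 and Cyp3a59, 0.43 between Cyp3a11 and Cyp3a25 and 0.27 between Cyp3a11 and Cyp3a13. Without the 3 HiAD libraries the same values were 0.46, 0.75, 0.46 and -0.06 (n = 11). These are descriptions over libraries that share groups and a common scale. Among the genes outside the family most like Cyp3a11, the member with the highest mean and the widest span of group means, were Slc43a3 (r = 0.91), a purine nucleobase transporter, the organic anion transporter Slco1a4 (0.88), the glycolytic enolase Eno1 (0.86) and Baiap2l1 (0.86), an adaptor of the actin cytoskeleton. Without the HiAD libraries these values were 0.81, 0.67, 0.69 and 0.61.

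No receptor or factor listed as controlling Cyp3a genes was called between the diets, where few of all genes were. Of all tested genes, 1.66% were called higher and 1.45% lower in HiAD against FFD, and 2.81% and 1.82% against chow. At such shares a count of 0 in 24 genes says little about the regulators. Of 24 tested regulators, 0 were called in HiAD against FFD (0 higher, 0 lower, median log2 fold change -0.02) and 0 in HiAD against chow (median 0.09), next to medians of 0.02 and -0.02 over all genes. Differences in both directions stand behind the first median. In HiAD against FFD the coactivator Ppargc1a was at 1.72, the orphan receptor Nr0b2 at -1.55, Nfil3 at -1.15 and Cebpa at -0.77, each with libraries that did not overlap. Of all tested genes, 30.6% did not overlap in this comparison either. These genes, and Nr1i2 and Nr1i3, were picked after their values were seen. Nr1i2, which encodes PXR, was at 40.2 scaled FPKM on the HiAD and 24.8 on the FFD, a log2 fold change of 0.65 that was not called, also without overlap. Nr1i3, which encodes CAR, was at 32.3 on the HiAD and 36.3 on the FFD. With PM, Onecut1, a hepatocyte homeobox factor, rose by a log2 fold change of 2.04 (adjusted p = 0.0058 from limma), a call lost without PM replicate R19, and no other regulator of the list was called. With PM 3.31% of all tested genes were called higher and 3.14% lower. In the libraries labelled RageHepKO 3 of 24 rose and 5 fell, near the 15.7% and 17.7% of all tested genes. Among them, the hepatocyte nuclear factor Hnf4a fell with -1.30 (adjusted p = 0.00204 from limma). The bile acid receptor Nr1h4 rose with 1.36 (adjusted p = 0.00776 from limma), as did the oxysterol receptor Nr1h3 (adjusted p = 0.0012 from limma), and Nr1i3 rose with 1.99, a call lost without HiAD replicate B2 or RageHepKO replicate RA19.

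Among the enzymes that supply electrons and haem to cytochromes P450, too few were tested for their counts to be set against the shares of all genes. Of 14 tested, 0 were called in HiAD against FFD, 1 was higher and 1 lower in HiAD against chow, and 1 was lower with PM, where 1.45% to 3.31% of all tested genes were called in each direction of these comparisons. The gene lower with PM was Por, the reductase that feeds electrons to every microsomal P450, at 13.9 scaled FPKM on the HiAD and 3.80 with PM, with a log2 fold change of -1.62, and its call was lost without either PM library or without HiAD replicate B1 or B2. In the libraries labelled RageHepKO 4 rose and 2 fell, beside 15.7% and 17.7% of all genes. Cyb5b, the cytochrome b5 of the outer mitochondrial membrane, fell with -1.66 (adjusted p = 0.000506 from limma) and coproporphyrinogen oxidase Cpox with -1.06 (adjusted p = 0.0113 from limma). The haem synthesis genes Urod and Uros rose with 1.24 and 0.90.

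Other known targets of PXR and CAR were higher on the HiAD in part. Of 18 tested, 4 reached the level needed for testing only through the HiAD libraries, so that they had to differ, and they are left out of the counts. Of the remaining 14, 2 were called higher and 0 lower in HiAD against FFD, with a median log2 fold change of 0.81, where the median of all genes was 0.02. Against chow 1 was higher and 0 lower (median 0.46). With PM 0 were higher and 1 lower (median -0.31), and in the libraries labelled RageHepKO 0 were higher and 5 lower (median -0.29). Of all tested genes, 1.66% were called higher in HiAD against FFD and 2.81% against chow. Called lower were 3.14% with PM and 17.7% in the libraries labelled RageHepKO. Slco1a4, which takes up organic anions and drugs, was at 40.1, 54.8 and 61.8 scaled FPKM on the HiAD and at 6.60, 1.09 and 1.54 on the FFD. Between these groups it rose by 3.94 ± 0.58 (log2, SE; limma, adjusted p = 0.00309). With PM its change was -4.43 ± 0.65 (log2, SE; limma, adjusted p = 0.00191), and it was at -3.79 in the libraries labelled RageHepKO. It was called under each alternative tried in these 3 comparisons. Against chow, where Slco1a4 was called at 2.78, the call was lost under 6 of 24 alternatives.

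The other target called higher was Gstm3, a glutathione transferase chosen after its values were seen, at 18.8 ± 3.90 scaled FPKM (SD, n = 3) on the HiAD and 2.51 ± 0.755 (SD, n = 3) on the FFD (log2 fold change 2.50, adjusted p = 0.0384 from limma). That call was lost under 11 of 23 alternatives, among them leaving out any HiAD, FFD or PM library or chow replicate R1. With PM it was at 21.2 ± 0.374 (SD, n = 2). Abcb1a, the drug efflux pump P-glycoprotein, and Akr1b7, an aldo-keto reductase, were tested only through the HiAD, and are given as levels. Abcb1a was at 2.38, 0.991 and 1.57 scaled FPKM on the HiAD and at most 0.204 on the FFD, and Akr1b7 at 4.08, 0.810 and 2.15 on the HiAD and at most 0.0431 on the FFD. Ugt1a1, which conjugates bilirubin, was at 843 ± 159 (SD, n = 3) on the HiAD and 528 ± 92.7 (SD, n = 3) on the FFD and was not called (0.67). The classical CAR target Cyp2b10 was at 1.19 on the HiAD and 2.26 on chow, was listed at 0 in the FFD libraries, and was not called in either comparison.

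Genes known to differ between female and male liver were called in the same comparisons, female-biased genes higher and male-biased genes lower on the HiAD. Of 16 tested female-biased genes, 8 reached the level for testing only through the HiAD and are left out of the counts. Of the remaining 8, 3 were higher and 0 lower in HiAD against FFD (median 1.19), 3 higher and 0 lower against chow (median 1.07), 0 higher and 4 lower with PM (median -2.94), and 1 higher and 3 lower in the libraries labelled RageHepKO (median -0.42). Of 17 male-biased genes, 12 were lower and 0 higher in HiAD against FFD (median -3.52) and 14 lower and 0 higher against chow. Called higher were 15 and lower 0, both with PM (median 4.24) and in the libraries labelled RageHepKO (median 3.30). Of all tested genes, 1.66% were called higher and 1.45% lower in HiAD against FFD, and 2.81% and 1.82% against chow. With PM these shares were 3.31% and 3.14%, and in the libraries labelled RageHepKO 15.7% and 17.7%. The 2 gene lists were written with the direction of sex-biased genes in these libraries known, and are no independent evidence of it.

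Cyp2b9, a female-predominant cytochrome, was at 36.4 ± 20.8 scaled FPKM (SD, n = 3) on the HiAD and at most 0.081 in the chow and FFD libraries. It was tested only through the HiAD, as were the organic anion transporters Slc22a27, at 5.17, 4.08 and 8.65 on the HiAD and at most 0.271 elsewhere, and Slc22a26, at 7.19, 1.63 and 5.92 on the HiAD and at most 0.538 elsewhere. The peroxisomal transporter Abcd2, which reached that level in other groups too, rose by 1.82 in HiAD against FFD (adjusted p = 0.00213 from limma), also without any single library. Hsd3b5, a steroid dehydrogenase of male liver, was listed at 0 in every HiAD library and at 131, 104 and 168 scaled FPKM on the FFD. Susd4 fell by 3.69 in HiAD against FFD (adjusted p = 2.96e-05 from limma), and the call held in every alternative. Mup7, a major urinary protein, was at 1073, 1291 and 844 scaled FPKM on the FFD and at most 0.0959 on the HiAD. Selenbp2, a selenium-binding protein, was at 3.19, 1.37 and 5.70 on the FFD and at most 0.700 on the HiAD, and was not called. In the libraries labelled RageHepKO, Cyp2a4 was the female-biased gene called higher, at 126 scaled FPKM against 14.4 on the HiAD (log2 fold change 2.78). The members known as female-predominant, Cyp3a41a, Cyp3a41b and Cyp3a44, stayed below 0.5 scaled FPKM in the same HiAD libraries.

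**Figure D5:**
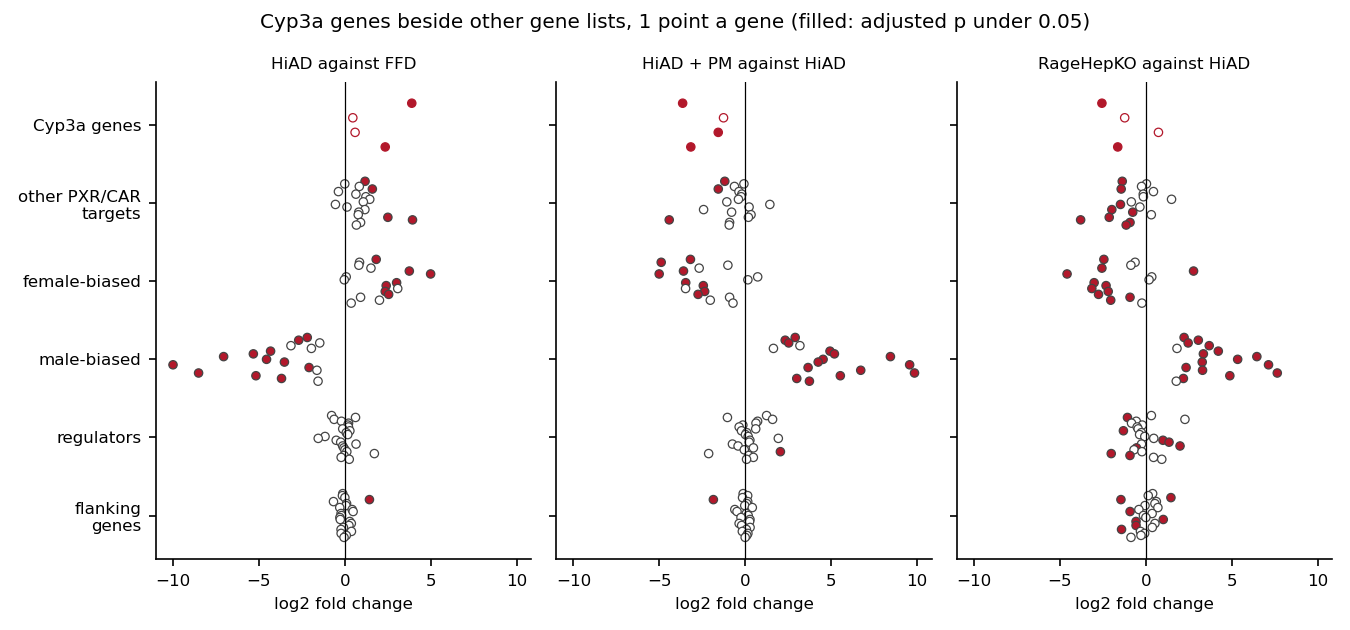
Log2 fold change (horizontal axes) of each tested gene (points, filled where the adjusted p from limma was under 0.05) for the 4 expressed Cyp3a genes and 5 gene lists (vertical axis), in HiAD against FFD, PM against HiAD and RageHepKO against HiAD. In HiAD against FFD the medians are -3.52 for male-biased genes and -0.02 for regulators, and 4 of the 18 other PXR and CAR targets and 8 of the 16 female-biased genes shown were tested only through the HiAD.

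Growth hormone sets the sex bias of many liver genes through STAT5, and 9 of its signalling genes were tested. In HiAD against FFD the receptor Ghr (-0.83, adjusted p = 0.0228 from limma) and Igfals (-1.24, adjusted p = 0.0189 from limma), the binding partner of circulating IGF, were lower, and 0 were higher. Both calls were lost without single libraries of these groups, HiAD replicate B2 and FFD replicates R28 and R32 among them. Of all tested genes, 1.45% were called lower and 1.66% higher there. With PM Ghr (1.39) and Igfals (1.34) were higher, beside 3.31% of all tested genes. In the libraries labelled RageHepKO Igfals (1.28) and Igf1 (0.81) were called higher and Ghr (0.33) was not, beside 15.7% of all tested genes called higher. The call of Igf1 was lost under 15 of 22 alternatives. Stat5b itself was at 10.8 scaled FPKM on the HiAD and 9.30 on the FFD. Of 9 fetal liver genes, H19 alone was high enough to be tested and it was not called.

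Other cytochromes of the Cyp1 to Cyp4 families did not follow the pattern of Cyp3a11 as a body. Of 47 tested, 3 were tested only through the HiAD. Of the remaining 44, 3 were higher and 4 lower in HiAD against FFD (median -0.12), and 3 higher and 6 lower against chow (median -0.32). With PM 11 were higher and 6 lower (median 0.38), and in the libraries labelled RageHepKO 16 higher and 4 lower (median 0.40). Of all tested genes, 1.66% were called higher and 1.45% lower in HiAD against FFD, and 2.81% and 1.82% against chow. With PM these shares were 3.31% and 3.14%, and in the libraries labelled RageHepKO 15.7% and 17.7%. Cyp4a10, a fatty acid hydroxylase and target of PPAR-alpha, was at 1329 scaled FPKM on the HiAD and 43.2 with PM (log2 fold change -4.88, adjusted p = 5.67e-05 from limma), but at 889 on the FFD and 1266 in the libraries labelled RageHepKO. Cyp4f14 and Cyp4f15, which hydroxylate leukotrienes and fatty acids, were lower in HiAD against FFD (-1.27 and -0.92) and higher with PM (2.63 and 1.15).

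The genes next to the cluster were called about as often as all genes. Of 23 tested genes within 1 Mb of it, 1 was higher and 0 were lower in HiAD against FFD (median -0.05). Against chow 1 was higher, and with PM 1 was lower. Of all tested genes, 1.66% were called higher in HiAD against FFD, 2.81% higher against chow and 3.14% lower with PM. In the libraries labelled RageHepKO 2 were higher and 5 lower, where 15.7% and 17.7% of all genes were. The same gene, Baiap2l1, accounted for the call in each comparison of HiAD with FFD, chow and PM. It was at 29.8, 25.5 and 27.9 scaled FPKM on the HiAD, at 8.55, 8.60 and 12.1 on the FFD and at 7.55 and 6.31 with PM. It differed by 1.43 ± 0.20 between HiAD and FFD (log2, SE; limma, adjusted p = 0.00215), by -1.86 with PM and by -1.44 in the libraries labelled RageHepKO. In the last comparison Atp5j2 (1.46) and Ptcd1 (1.02) were higher and Usp12 (-1.41) was lower.

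Markers of other liver cells were measured beside these results. The 5 cholangiocyte markers summed to 6.71 to 8.55 scaled FPKM on the HiAD and 1.58 to 2.97 in all other libraries. Of these, 2 were high enough to be tested: Epcam, only through the HiAD, and Sox9, not called in HiAD against FFD or chow. The 6 stellate cell and fibroblast markers summed to 39.6 to 52.6 on the HiAD and 15.6 to 34.6 elsewhere. Most of the HiAD sum was Dcn, at 32.7, 41.2 and 42.7. In HiAD against FFD 1 of these 6 markers, Dcn, was called, and it was higher (median log2 fold change of the 6 markers 0.27). Of all tested genes, 1.66% were called higher there and 1.45% lower. The 4 macrophage markers summed to 39.6 to 50.3 on the HiAD and 57.2 to 453 elsewhere, and the 4 endothelial markers to 12.3 to 15.8 and 11.3 to 24.4. In HiAD against FFD the macrophage markers Clec4f (-2.20) and Cd5l (-2.21) were called lower, and no endothelial marker was called. The 5 enterocyte markers, of which liver also expresses Apoa4, summed to 509.9 to 6845 with Lct and Sis at 0 in all libraries, and of 4 pancreas markers Prss2 was at 0 in all. The part of these cells in the Cyp3a levels was not tested. The hepatocyte sums were 23798 to 26564 on the HiAD, 24619 to 33329 on chow, 16051 to 22221 on the FFD, 18544 to 20390 with PM and 27036 to 38196 in the libraries labelled RageHepKO. Among the 6 hepatocyte markers, Serpina1c alone was called in HiAD against FFD, and it was lower (-1.59). Under the RageHepKO label 2 of them were called higher and 3 lower, beside 15.7% and 17.7% of all tested genes.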

How the data were processed

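Liver RNA of 14 mice in 5 groups was analysed. The authors deposited FPKM values under the name of raw counts: the unit was inferred from the values, which are not whole. The labels name GRCm38, and the methods describe GENCODE annotations and Dropseq tools. The FPKM calculation itself was not stated in these sources. The table had 55583 entries, less 27 whose names had become dates and 129 that repeated another row. Libraries were divided by a trimmed mean of log ratios (30% left out at each end) over 6522 genes. Genes reaching 1 scaled FPKM in 2 or more libraries (12110) were compared on log2 of scaled FPKM plus 1 with limma 3.58.1 (trend, robust, 5 group means, 6 contrasts), with Benjamini-Hochberg adjustment and a threshold of 0.05. The test was checked on simulated data. Columns left unmapped were 0.

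The members and gene lists were chosen with earlier results of these data known. Named were the members, up to 4 genes of each list with the smallest adjusted p in contrasts against HiAD or FFD, and the 5 genes most correlated with Cyp3a11, of which 1 is not reported here. Nr1i2, Nr1i3, Ppargc1a, Nr0b2, Nfil3, Cebpa, Por, Gstm3, Cyp2b10, Cyp2a4 and the library facts were added after their values were seen. Coding sequences from GENCODE M21 replaced the planned protein alignments, and promoters came from RefSeq, where all 9 coding genes were found. R 4.3.3, Python 3.11.15, pandas 2.3.3, numpy 2.4.6, biopython 1.88 and matplotlib 3.10.9 were used.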

Additional observations from a re-analysis of the deposited data

How the results depend on the processing

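Besides the settings reported, 24 alternatives were run where they applied, among them no filter on low values, pseudocounts of 0.1 and 0.5, other scalings, fits of the compared groups alone, sample quality weights, summed copies of Cyp3a41a and Cyp3a41b, and each library left out in turn. A fit without the libraries labelled RageHepKO was added after seeing the data. No member that was called changed direction. Cyp3a11 was called in HiAD against FFD (log2 fold change 2.96 to 4.44) and in RageHepKO against HiAD (-2.92 to -2.26) under all of them. In HiAD against FFD the count of members called was 1 with no filter, against 2, and 1 to 2 with a library left out. In HiAD against chow it was 0 with no filter and with a pseudocount of 0.1, 2 with sample quality weights and 0 to 1 with a library left out. With PM it was 0 to 3 and in RageHepKO against HiAD 1 to 3 with a library left out. Cyp3a25 with PM lost its call under 12 of 23 alternatives. Chow and HiAD share the numbers 1 to 3, which no source ties to shared animals or days. With the number as a replicate block, the count of members called in HiAD against chow was 0 and that of all genes 63. Counts over all tested genes ranged from 148 to 1139 in HiAD against FFD, from 63 to 2380 against chow, from 132 to 3109 with PM and from 2571 to 4496 in RageHepKO against HiAD, with the upper ends of the first 3 from sample quality weights, and from 2 to 536 in FFD against chow and 0 to 1117 in PM against FFD. The count of male-biased genes called lower in HiAD against FFD ranged from 10 to 16. The causes of these shifts were not tested. Read depth is unknown, and with 2 or 3 libraries a group the spread is poorly known.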
